A study of Mus musculus with 8 samples.

Results

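The genes described here are 8 pattern-recognition genes of macrophages: the TREM receptors Trem1 and Trem2 with their adapter Tyrobp, and the C-type lectins Clec4a2, Clec4d, Clec4e, Clec4n and Clec7a. They were taken by gene symbol from the 18193 genes that had a probe set with a single symbol on a mouse Affymetrix array. They carry 13 such probe sets, and each gene was represented by its main probe set, the one with the highest mean over the 8 arrays. The arrays measured RNA of RAW 264.7 cells, a macrophage line that grew from a mouse tumor induced with Abelson leukemia virus, so every group is of 1 transformed line. The LPS+M cells had menthol for 1 h and then lipopolysaccharide (LPS, the outer membrane glycolipid of Gram-negative bacteria) at 100 ng/ml for 6 h. The LPS cells had control treatment for 1 h and the same LPS. The M cells had menthol for 1 h without LPS, and the control cells had control treatment for 1 h without either agent. Each group had 2 arrays. The labels give no menthol dose and no harvest time for the M and control cells, so groups with and without LPS may also differ in time. The study asked whether menthol lowers inflammatory gene expression in LPS-stimulated macrophages.

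TREM receptors have short tails without signaling motifs of their own and pair with the transmembrane adapter DAP12, the product of Tyrobp, whose tyrosine-based activation motif (ITAM) recruits the kinase SYK. The lectins Mincle (Clec4e), MCL (Clec4d) and Dectin-2 (Clec4n) use the related adapter FcR gamma (Fcer1g), Dectin-1 (Clec7a) carries a hemITAM in its own tail, and DCIR (Clec4a2) carries an inhibitory motif (ITIM) that recruits phosphatases. Downstream of SYK, CARD9, BCL10 and MALT1 lead to NF-kB and cytokine genes, and TREM-1 is known as an amplifier of Toll-like receptor responses in myeloid cells.

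The deposited values are log2 signals, and the median of all probe sets lay between 2.99 and 3.04 on the 8 arrays. All 13 macrophage markers on the array lay above the filter of 4.84 used here, the mean of all probe sets. The log2 of their summed signals was 17.41 to 17.52 in LPS+M and 17.40 to 17.43 in LPS. It was 17.49 to 17.50 in M and 17.42 to 17.46 in control. The strongest markers weigh most in this sum. Some single macrophage markers changed by at least 1.5-fold at an adjusted p under 0.05. Cx3cr1, a chemokine receptor gene, was lower in M versus control (log2 fold change -0.61 ± 0.09, adjusted p = 0.00345, limma) and in LPS+M versus LPS (-0.66 ± 0.09, adjusted p = 0.00169), but not when its probe sets were averaged (-0.45 and -0.21). Without control replicate 1 the value in M versus control was -0.51, and without LPS replicate 1 that in LPS+M versus LPS was -0.57, both under the 1.5-fold minimum. Adgre1, which encodes F4/80, was higher in LPS versus control (0.95 ± 0.07, adjusted p = 6.8e-05, limma), where Fcgr1 was lower, and their part in the members' results was not tested. None of the 7 dendritic cell markers and none of the 9 fibroblast and epithelial markers passed that filter. Of 8 osteoclast markers 3 passed, and of 6 neutrophil and monocyte markers 2 passed. The difference between 3' and 5' probes ran from -0.27 to -0.20 for Gapdh and from 0.69 to 0.77 for Actb. In such cultures, fewer cells expressing a gene and less RNA per cell cannot be told apart. The sample labels name the arrays of each group biological replicates without saying that the cultures were separate. The p-values rest on the spread within these pairs of arrays alone, and where the cultures were not separate that spread may be technical.

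The 8 genes did not move as a block. Trem1 was higher with menthol, with and without LPS. Clec4e was higher with LPS, with and without menthol. Clec4a2 was lower in LPS+M than in LPS. The other members, Trem2, Tyrobp, Clec4d, Clec4n and Clec7a, were called in no comparison. A gene was called at an adjusted p under 0.05 (limma, Benjamini-Hochberg over all 8908 genes that passed the filter) and a fold change of at least 1.5. All 8 main probe sets passed the filter on the mean of all arrays.

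Of the 8 members, 1 was called in M versus control, where 4.55% of all tested genes were called, and 1 in LPS versus control, where 6.13% were. In LPS versus M, 3 members were called against 11.3% of all genes. For LPS+M versus LPS, 2 members were called against 6.71% of all genes, and for LPS+M versus M, 2 were called against 4.16%. For LPS+M versus control, 2 were called against 9.83%. The median log2 fold change of the members was 0.10 for M versus control, beside 0.02 over all genes tested, and 0.07 for LPS versus control, beside -0.03. It was -0.03 for LPS+M versus LPS, beside 0.03 over all genes. The arrays of the 2 groups did not overlap for 5 to 7 of the 8 members in each comparison, and for 55.2% to 75.8% of all tested genes. These comparisons share arrays with each other, apart from M versus control with LPS+M versus LPS, LPS versus control with LPS+M versus M, and LPS versus M with LPS+M versus control.

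**Figure D1:**
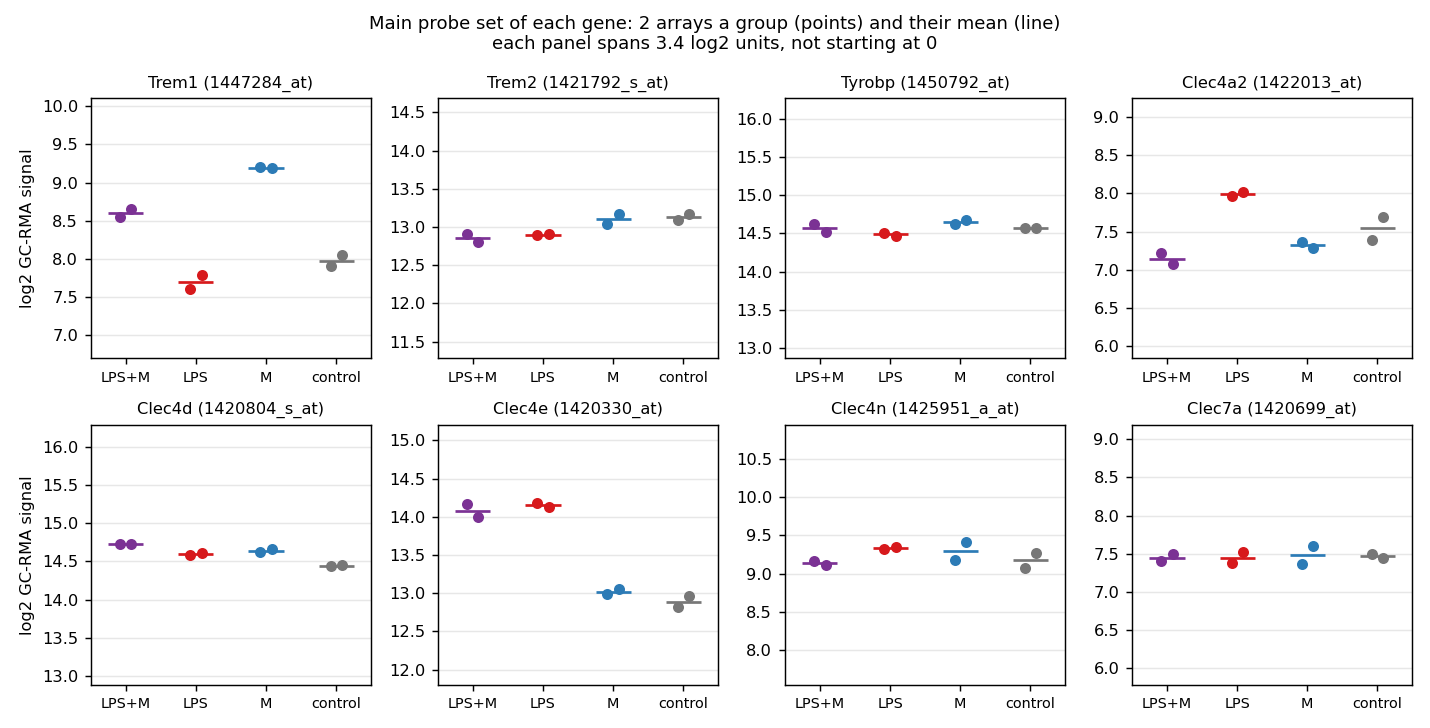
Log2 GC-RMA signal (y axis) of the main probe set of each of the 8 genes in the LPS+M, LPS, M and control groups (x axis); points are the 2 arrays and the line is their mean, and each panel spans the same width on the log2 scale. Trem1 is highest in M at 9.20 and 9.19, Clec4e is high in both groups with LPS, Clec4a2 is highest in LPS at 7.96 and 8.02, and the points of Clec7a overlap in all groups.

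Trem1 encodes the activating receptor TREM-1. Its 2 probe sets are 1447284_at, the main one, which the platform annotation ties to an expressed sequence tag, and 1460282_at, which it ties to a RefSeq transcript. The gene's promoter is shown because Trem1 is the member that moved with menthol. The 300 bases from 250 before to 50 after the start site lie at chr17:48232489-48232788 on the plus strand (RefSeq, GRCm38.p6). Capitals mark a PU.1 core (GAGGAA) at -162 to -157 and a C/EBP pattern (TTNNGNAA) at -35 to -28 from the start site.
Trem1: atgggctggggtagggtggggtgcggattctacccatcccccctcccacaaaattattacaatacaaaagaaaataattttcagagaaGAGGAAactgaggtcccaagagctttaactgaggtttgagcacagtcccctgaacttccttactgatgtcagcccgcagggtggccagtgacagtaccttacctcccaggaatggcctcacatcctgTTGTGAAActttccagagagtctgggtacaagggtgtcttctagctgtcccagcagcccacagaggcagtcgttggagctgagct

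On the main probe set, Trem1 had log2 signals of 8.55 and 8.66 in LPS+M, 7.61 and 7.79 in LPS, 9.20 and 9.19 in M, and 7.91 and 8.05 in control. No arrays of different groups overlapped, and both groups with menthol lay above both groups without it. In M versus control, Trem1 was higher by 1.21 ± 0.09 (SE; log2; 2.32-fold; adjusted p = 0.000194, limma). Under LPS, in LPS+M versus LPS, it was higher by 0.91 ± 0.09 (1.87-fold; adjusted p = 0.000389). No array is shared by these 2 contrasts.

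LPS went with lower Trem1 in both settings, with different outcomes of the test. In LPS versus control the log2 fold change was -0.28 ± 0.09 and was not called (adjusted p = 0.0526, limma). In LPS+M versus M it was -0.59 ± 0.09, called at a 1.5-fold change that sits on the border (adjusted p = 0.00353). The call was lost after quantile normalization of the deposited values (-0.58) and without LPS+M replicate 1 (-0.53). Against control, the LPS+M cells had 0.63 ± 0.09 more Trem1 on the log2 scale (adjusted p = 0.00113), a call lost without control replicate 1 (0.56) or without LPS+M replicate 2 (0.57). The largest contrast was LPS versus M, at -1.49 ± 0.09 (2.82-fold lower in LPS; adjusted p = 1.48e-05).

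The other Trem1 probe set, 1460282_at, gave 6.89 and 6.73 in LPS+M, 4.45 and 5.15 in LPS, 7.16 and 7.36 in M, and 5.59 and 6.00 in control. The order of the groups was that of the main probe set, M above LPS+M above control above LPS, again with no overlap. Its differences were wider: 1.46 ± 0.24 for M versus control (adjusted p = 0.00851, limma over 14503 probe sets tested alone, of which 5.07% were called) and 2.01 ± 0.24 for LPS+M versus LPS (adjusted p = 0.00197, with 7.64% called). On this probe set LPS versus control was called lower, at -0.99 ± 0.24 (adjusted p = 0.031, with 5.7% called), while LPS+M versus M was not called (-0.45 ± 0.24, adjusted p = 0.295, with 3.89% called). The LPS arrays of this probe set differed by more from each other than those of any other group, at 4.45 and 5.15.

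Trem2 encodes a lipid-sensing receptor that supports phagocytosis and survival of macrophages and microglia. Its main probe set, 1421792_s_at, gave 12.91 and 12.80 in LPS+M, 12.89 and 12.91 in LPS, 13.04 and 13.17 in M, and 13.09 and 13.17 in control. Both groups with LPS lay under both groups without it, and menthol left the arrays overlapping. The log2 fold change was -0.27 ± 0.07 for LPS+M versus control (adjusted p = 0.0231, limma, under the 1.5-fold minimum) and -0.22 ± 0.07 for LPS versus control (adjusted p = 0.0667). For M versus control it was -0.02, with a 95% interval of -0.19 to 0.15. The other probe set, 1421226_at, stayed between 3.44 and 3.73 on all arrays, under the filter.

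Tyrobp, the DAP12 adapter gene, gave 14.63 and 14.52 in LPS+M, 14.51 and 14.47 in LPS, 14.63 and 14.67 in M, and 14.57 on both control arrays of 1450792_at. The means of the 4 groups spanned 0.16 log2 units, the highest in M and the lowest in LPS. The 95% interval of the log2 fold change was -0.07 to 0.23 for both M versus control and LPS+M versus LPS, and both intervals lie inside a 1.5-fold change. The signal of this probe set lay above that of 99.4% of all probe sets.

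Trem3, which in mice encodes another DAP12-coupled receptor, lies next to Trem1 in the RefSeq gene order (GRCm38.p6), in the interval from Trem1 to Trem2. It gave 8.11 and 8.06 in LPS+M, 7.73 and 7.80 in LPS, 7.80 and 7.99 in M, and 7.45 and 7.40 in control. Every treated array lay above both control arrays. Trem3 was called in LPS+M versus control, at 0.66 ± 0.08 (adjusted p = 0.000537, limma), while M versus control (0.47 ± 0.08, adjusted p = 0.00526) stayed under 1.5-fold. Among tested genes outside the members, Trem3 and Slc7a11 had the highest Pearson r with Clec4d, both 0.991. Rnmt followed at 0.99, over the same 8 arrays that share their groups. Treml4 and Treml2, in the same interval, lay under the filter.

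Clec4e encodes Mincle, a receptor of mycobacterial cord factor and of the nuclear protein SAP130 released by dying cells. In the RefSeq gene order (GRCm38.p6) it lies beside Clec4d on chromosome 6, in a group that also holds Clec4n and Clec4a2. Its promoter is shown because Clec4e is the member that moved with LPS. The window is chr6:123289822-123290121 on the minus strand (RefSeq, GRCm38.p6). Capitals mark C/EBP patterns at -219 to -212 and -66 to -59, and PU.1 cores at -123 to -118, on the opposite strand, and at -56 to -51.
Clec4e: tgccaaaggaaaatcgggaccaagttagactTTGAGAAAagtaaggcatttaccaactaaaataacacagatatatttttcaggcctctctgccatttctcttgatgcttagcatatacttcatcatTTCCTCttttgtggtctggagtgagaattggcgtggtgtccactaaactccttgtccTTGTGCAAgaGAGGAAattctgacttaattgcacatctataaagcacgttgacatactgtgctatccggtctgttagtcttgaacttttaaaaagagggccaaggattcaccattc

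On the main probe set, 1420330_at, Clec4e gave 14.16 and 13.99 in LPS+M, 14.18 and 14.13 in LPS, 12.99 and 13.05 in M, and 12.82 and 12.96 in control. All 4 arrays with LPS lay above all 4 without it, and the LPS+M and LPS arrays overlapped. Clec4e was higher by 1.26 ± 0.08 in LPS versus control (2.39-fold; adjusted p = 4.76e-05, limma) and by 1.05 ± 0.08 in LPS+M versus M (2.07-fold; adjusted p = 0.000171). The same held for LPS+M versus control (1.18 ± 0.08, adjusted p = 4.26e-05) and LPS versus M (1.13 ± 0.08, adjusted p = 5.05e-05). For LPS+M versus LPS the log2 fold change was -0.08 ± 0.08 (adjusted p = 0.523), with an interval of -0.27 to 0.11. The main probe set lay above 98.6% of all probe sets.

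The other Clec4e probe set, 1420331_at, is tied to the same RefSeq transcript and gave another picture for menthol. It stood at 11.23 and 11.22 in LPS+M, 12.03 and 12.14 in LPS, 9.55 and 9.65 in M, and 9.78 and 9.98 in control. Here the groups with menthol lay under their counterparts without it, and no arrays overlapped. The difference of LPS+M and LPS was -0.86 ± 0.09 (1.82-fold lower in LPS+M; adjusted p = 0.00118, limma), which was called. The LPS effect was also larger on this probe set, at 2.21 ± 0.09 without menthol (adjusted p = 2.22e-05) and 1.62 ± 0.09 with it (adjusted p = 9.45e-05). In M versus control it was -0.27 ± 0.09 (adjusted p = 0.0716), while the main probe set gave 0.13 ± 0.08 (adjusted p = 0.307). Whether menthol lowers Clec4e under LPS therefore depends on the probe set.

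**Figure D2:**
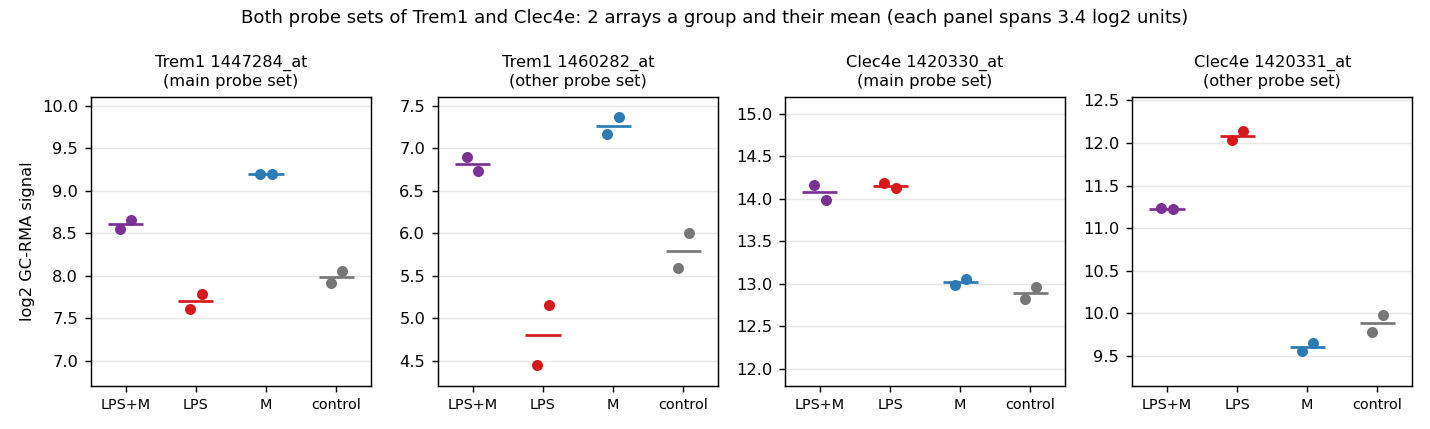
Log2 GC-RMA signal (y axis) of both probe sets of Trem1 and of Clec4e in the LPS+M, LPS, M and control groups (x axis); points are the 2 arrays and the line is their mean. Both Trem1 probe sets keep the order M, LPS+M, control, LPS, whereas Clec4e in LPS+M overlaps LPS on the main probe set and lies at 11.23 and 11.22 against 12.03 and 12.14 in LPS on the other.

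Clec4d encodes MCL, a lectin that forms complexes with Mincle and also binds cord factor. Its probe set, 1420804_s_at, gave 14.73 on both LPS+M arrays, 14.58 and 14.61 in LPS, 14.62 and 14.66 in M, and 14.44 and 14.45 in control. The 4 groups did not overlap, in the order LPS+M, M, LPS, control, with means that spanned 0.29 log2 units. The log2 fold change was 0.29 ± 0.06 for LPS+M versus control (1.22-fold; adjusted p = 0.00628, limma) and 0.20 ± 0.06 for M versus control (1.15-fold; adjusted p = 0.042). Both stayed under 1.5-fold and were not called. This probe set lay above 99.4% of all probe sets.

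Clec4n encodes Dectin-2, a receptor of fungal mannans. Its main probe set, 1425951_a_at, gave 9.16 and 9.11 in LPS+M, 9.32 and 9.35 in LPS, 9.18 and 9.41 in M, and 9.08 and 9.27 in control. The group means spanned 0.20 log2 units and neighbours in their order overlapped. The widest contrast was LPS+M versus LPS, at -0.20 ± 0.09 (adjusted p = 0.147, limma). The other probe set, 1419627_s_at, gave -0.17 ± 0.09 for the same contrast (adjusted p = 0.203) and -0.32 ± 0.09 for LPS+M versus M (adjusted p = 0.063).

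Clec7a encodes Dectin-1, the receptor of fungal beta-glucans. Its only probe set, 1420699_at, gave 7.40 and 7.50 in LPS+M, 7.38 and 7.52 in LPS, 7.37 and 7.60 in M, and 7.50 and 7.45 in control. The arrays of all groups overlapped and the group means spanned 0.04 log2 units. The 95% interval of the log2 fold change was -0.23 to 0.19 for LPS versus control and -0.22 to 0.21 for LPS+M versus LPS, within which a 1.5-fold change does not lie.

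Clec4a2 encodes DCIR, the ITIM-bearing lectin of the set and its only inhibitory receptor. It lies at the other end of the chromosome 6 group from Clec4e. Its promoter is shown because it was the member called lower in LPS+M than in LPS. The window is chr6:123122440-123122739 on the plus strand (RefSeq, GRCm38.p6). Capitals mark 2 overlapping C/EBP patterns from -242 to -234 and an AP-1 pattern (TGANTCA) at 32 to 38 after the start site.
Clec4a2: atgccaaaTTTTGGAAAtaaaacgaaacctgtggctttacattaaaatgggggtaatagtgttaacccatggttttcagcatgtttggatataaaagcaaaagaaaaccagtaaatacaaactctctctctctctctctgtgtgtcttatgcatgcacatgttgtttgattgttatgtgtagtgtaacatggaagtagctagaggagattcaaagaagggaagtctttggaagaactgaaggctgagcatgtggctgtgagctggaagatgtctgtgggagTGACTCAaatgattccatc

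On its main probe set, 1422013_at, Clec4a2 gave 7.22 and 7.07 in LPS+M, 7.96 and 8.02 in LPS, 7.36 and 7.28 in M, and 7.39 and 7.69 in control. The LPS arrays lay above all others, the LPS+M arrays below all others, and no groups overlapped. Between LPS+M and LPS, Clec4a2 was 1.80-fold lower (log2 fold change -0.85 ± 0.10; adjusted p = 0.0012, limma). In LPS versus control it was 0.45 ± 0.10 (1.37-fold; adjusted p = 0.0189), which stayed under the fold minimum, while without control replicate 2 it was 0.60 and called. LPS versus M was called higher at 0.67 ± 0.10 (adjusted p = 0.00177). The LPS+M cells had -0.40 ± 0.10 against control (adjusted p = 0.0211) and -0.17 ± 0.10 against M (adjusted p = 0.326), and neither was called.

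The other Clec4a2 probe set, 1425406_at, had low signals and no such pattern. It gave 4.75 and 4.82 in LPS+M, 5.04 and 4.89 in LPS, 4.96 and 5.09 in M, and 4.78 and 4.91 in control. Neighbouring groups overlapped. LPS+M versus LPS was -0.18 ± 0.09 (adjusted p = 0.168, limma) and LPS versus M was -0.06 ± 0.09 (adjusted p = 0.638). With the mean of both probe sets, LPS+M versus LPS was -0.51 and was not called, so this call rests on 1422013_at.

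A lymphocyte marker also moved with the groups, highest in LPS, then in control, with LPS+M and M below and overlapping each other. Of 8 lymphocyte markers on the array only Ighm, the immunoglobulin mu heavy chain, passed the filter, and the other 7 had means of at most 3.79. The log2 of the summed signals of the list was 7.22 to 7.25 in LPS+M and 8.23 to 8.29 in LPS. It was 7.18 to 7.26 in M and 7.72 to 7.80 in control. Ighm was called lower in LPS+M than in LPS (-1.29 ± 0.07, adjusted p = 5.24e-05, limma). Its part in the Clec4a2 result was not tested.

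Promoters of 6 members were in the RefSeq table, and the letters of 5 motifs were searched on both strands. Only the first start site listed for a member was used, and Clec7a had 2. The shares of all promoters count every start site of a gene. The PU.1 core GAGGAA was in 5 of the 6, beside 28.3% of all 32851 promoters of this length, and the C/EBP pattern TTNNGNAA was in 5, beside 40.7%. The AP-1 pattern TGANTCA was in 2, those of Clec4a2 and Trem2, beside 7.81%, and the ISRE pattern GAAANNGAA was in that of Clec4d alone, beside 8.56%, where it overlaps a PU.1 core. The kB pattern GGGANTTCC was in none of the 6 windows and in 1.68% of all promoters. These are matches of letters and not measured binding sites.

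**Figure D3:**
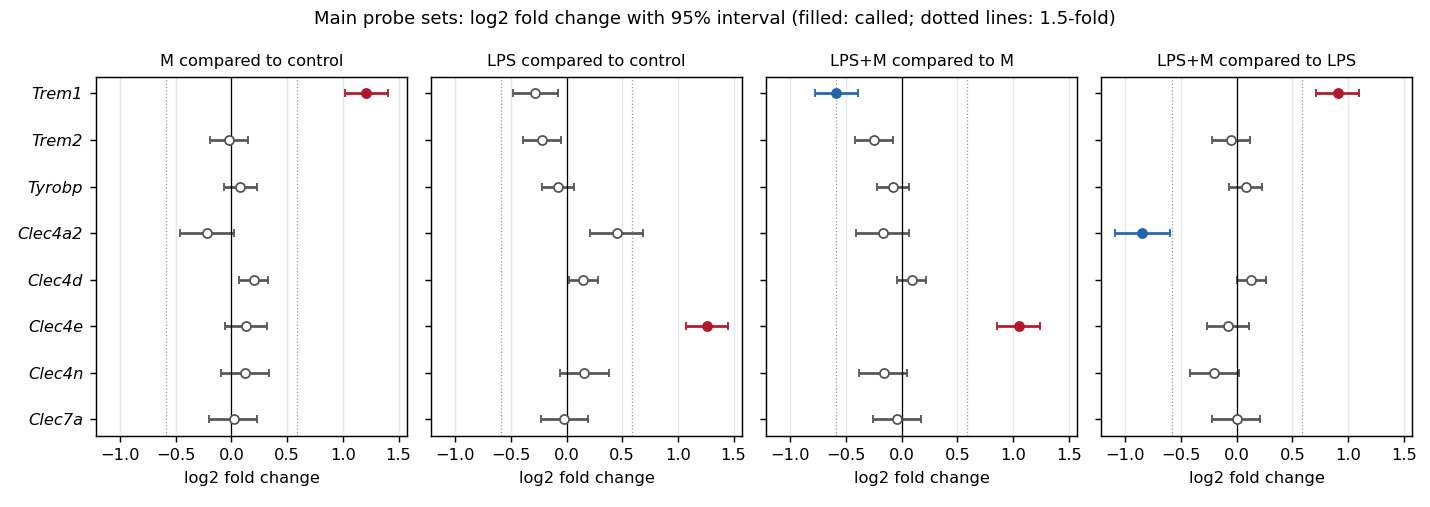
Log2 fold change (x axis) of the main probe set of each gene (y axis) in 4 comparisons, with 95% intervals from limma; filled points were called and dotted lines mark 1.5-fold. Trem1 is called in M versus control, LPS+M versus M and LPS+M versus LPS, Clec4e in both LPS effects, and Clec4a2 in LPS+M versus LPS, while the other 5 genes are called in none.

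Whether the menthol effect differed with and without LPS was tested as the interaction, the LPS effect under menthol minus the LPS effect without it. None of the 8 members was called, beside 0.236% of all genes (21 of 8908). The largest values by size were those of Clec4a2 (-0.62 ± 0.15, adjusted p = 0.195, limma), Clec4n (-0.32 ± 0.13, adjusted p = 0.462) and Trem1 (-0.31 ± 0.12, adjusted p = 0.427). For Trem1 the sign depended on the probe set, since 1460282_at gave 0.54 ± 0.33 (adjusted p = 0.741). For Clec4e, 1420331_at gave -0.59 ± 0.12 (adjusted p = 0.28) and the main probe set -0.21 ± 0.12 (adjusted p = 0.627).

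Pearson's r between members over the 8 arrays is a description that mixes group differences with the spread between arrays. It lay between -0.88, for Trem2 with Clec4e, and 0.77, for Trem1 with Tyrobp. For Trem1 it was also 0.23 with Trem2, -0.34 with Clec4e and -0.75 with Clec4a2, and for Clec4d with Clec4e it was 0.61. Among all other tested genes, the nearest to Trem1 were Mrtfb, a coactivator of serum response factor (r = 0.991), the Hippo pathway kinase gene Lats2 (0.989) and the Golgi membrane protein gene Tmem165 (0.988). Of these only Lats2 was called in M versus control, at 0.73 ± 0.07 (adjusted p = 0.000783, limma). The nearest to Clec4e were Tma16 (0.996), Cflar, which encodes the apoptosis inhibitor c-FLIP (0.995), and Ppfibp2 (0.995), all called higher in LPS versus control, Ppfibp2 by 2.54 ± 0.12 (adjusted p = 9.68e-06). The nearest to Clec4a2 were Rbm45 (0.986), the tubulin folding cofactor gene Tbcc (0.97) and Usp18 (0.966), whose product removes the interferon-induced modifier ISG15. Usp18 was lower in LPS+M than in LPS (log2 fold change -2.24 ± 0.15, adjusted p = 0.000124).

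Other genes of the pathway were read from lists of related genes. Of the 9 tested ITAM adapters and receptors that use them, none was called in M versus control or in LPS+M versus LPS. Of all tested genes, 4.55% and 6.71% were called there. Fcer1g, the adapter of the Dectin-2 family, gave 14.37 and 14.18 in LPS+M, 14.22 on both LPS arrays, 14.16 and 14.21 in M, and 14.14 and 14.20 in control. It differed by 0.10 or less in all 6 comparisons and was called in none. The activating Fc receptor genes Fcgr1 (-0.89 ± 0.10, adjusted p = 0.00085, limma) and Fcgr3 (-0.89 ± 0.10, adjusted p = 0.000566), whose products also use FcR gamma, were the 2 called lower in LPS versus control.

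Of 33 tested genes of SYK and CARD9 signaling, M versus control had 1 called higher and 1 called lower, beside 3.01% and 1.54% of all genes. Syk, the kinase shared by these receptors, had 9.29 and 9.42 in LPS+M, 8.99 and 8.87 in LPS, 9.24 and 9.38 in M, and 8.56 and 8.68 in control. Both groups with menthol lay above both groups without it, as for Trem1. Syk was higher by 0.70 ± 0.09 in M versus control (adjusted p = 0.00188, limma), a difference of 0.36 and no call when its probe sets were averaged. Between LPS+M and LPS it was 0.42 ± 0.09 (adjusted p = 0.00962) and under 1.5-fold. On this main probe set Syk was also called higher in LPS+M versus control, at 0.73 ± 0.09 (adjusted p = 0.000537, limma). Rasgrp3, an exchange factor of Ras and Rap proteins, had 6.98 and 7.32 in LPS+M, 7.94 on both LPS arrays, 7.98 and 7.86 in M, and 9.28 and 9.05 in control. It was lower than control with either agent and lowest with both, at -1.25 ± 0.12 for M versus control (adjusted p = 0.000677), -1.23 ± 0.12 for LPS versus control (adjusted p = 0.000395) and -2.02 ± 0.12 for LPS+M versus control (adjusted p = 2.03e-05).

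With LPS versus control, 5 of the 33 signaling genes were called higher and 3 lower, beside 3.17% and 2.96% of all genes. The largest changes were those of Rasgrp3, of Pik3r5, a regulatory subunit of PI3K gamma (1.22 ± 0.09, adjusted p = 6.74e-05, limma), of the deubiquitinase gene Otud1 (1.09 ± 0.07, adjusted p = 3.65e-05) and of the signaling gene Vav3 (-1.04 ± 0.09, adjusted p = 0.000181). In LPS+M versus LPS, only Rasgrp3 was called, beside 6.71% of all genes. Its value was -0.79 ± 0.12 (adjusted p = 0.00298, limma), and it was not called when its probe sets were averaged (-0.45). In the interaction, Otud1 was the only one of these genes called, at -0.87 ± 0.10 (adjusted p = 0.0182). That call was lost in 7 of the 8 fits that left out 1 array, at -0.88 to -0.79, and with no filter on low values. In LPS+M versus M, 4 were called higher and 2 lower, beside 2.39% and 1.77% of all genes. The largest change was that of Relb, an NF-kB subunit (1.37 ± 0.10, adjusted p = 0.000143, limma). In LPS+M versus control, 7 of the 33 were called higher and 2 lower, beside 5.53% and 4.3% of all genes. The median log2 fold change of the list was 0.04 in M versus control, beside 0.02 over all genes, and 0.05 in LPS versus control, beside -0.03. Card9 was not analysed here.

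Of 18 tested inhibitors of ITAM signaling, 2 were called lower in M versus control, beside 1.54% of all genes. They were the tyrosine phosphatase gene Ptpn22 (-0.72 ± 0.08, adjusted p = 0.00134, limma) and the collagen receptor gene Lair1 (-0.69 ± 0.09, adjusted p = 0.00238). Lair1 was not called without control replicate 2 (-0.55). Ptpn22 had 6.26 and 6.44 in LPS+M, 7.17 and 7.03 in LPS, 6.68 and 6.71 in M, and 7.46 and 7.37 in control, so each menthol group lay below its counterpart. It was the only 1 of the 18 called in LPS+M versus LPS (-0.75 ± 0.08, adjusted p = 0.000735, limma), beside 6.71% of all genes. In LPS+M versus control, 1 of the 18 was called higher and 5 lower, beside 5.53% and 4.3% of all genes. With LPS versus control, Inpp5d, which encodes the lipid phosphatase SHIP-1, was called lower (-0.78 ± 0.06, adjusted p = 0.000107). Fcgr2b (0.64 ± 0.06, adjusted p = 0.000446) and Ptpn6 (0.60 ± 0.06, adjusted p = 0.000469), which encode the inhibitory Fc receptor and the phosphatase SHP-1, were called higher there, but not with the mean of their probe sets (0.51 and 0.58).

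**Figure D4:**
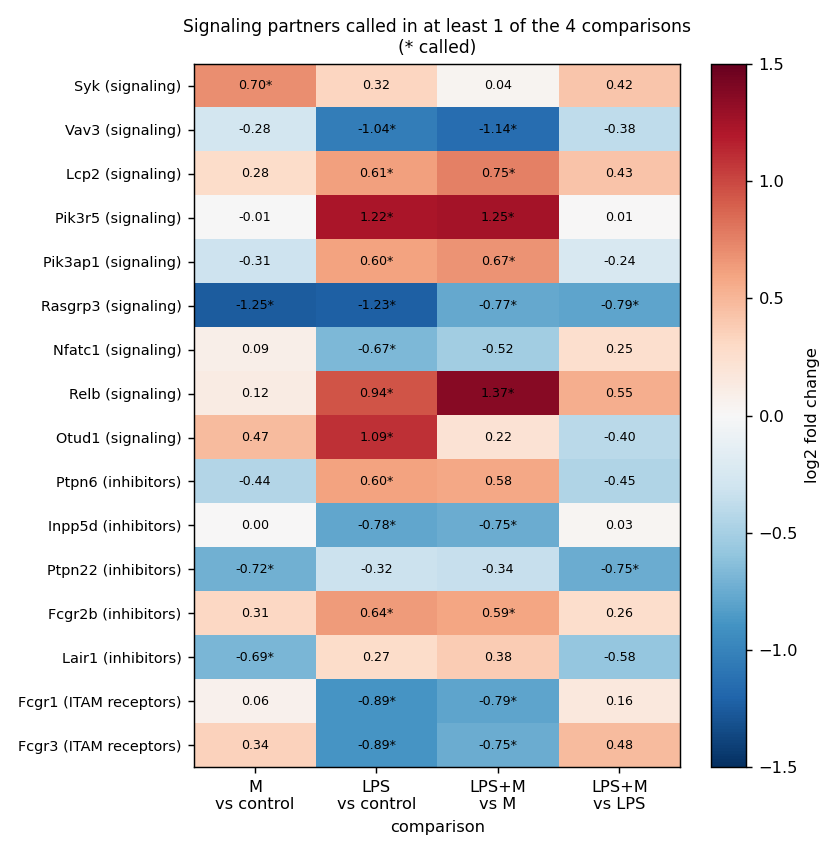
Log2 fold change (color and printed value) of each listed gene of SYK and CARD9 signaling, of its inhibitors and of the ITAM receptors (rows) that was called in at least 1 of 4 comparisons (columns); an asterisk marks a call. Syk at 0.70 and Rasgrp3 at -1.25 are the signaling genes called in M versus control, and Rasgrp3 at -0.79 and Ptpn22 at -0.75 are the genes called in LPS+M versus LPS.

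The list of TREM-like relatives also holds Nectin2, which encodes an adhesion molecule and not a TREM-like receptor. Of its 8 tested genes, 3 were called higher and none lower in LPS versus control, beside 3.17% and 2.96% of all genes. Nectin2 was 1 of these 3. The largest change was that of Pilrb1, an activating receptor that couples to DAP12, which had 8.14 and 8.15 in LPS+M, 8.50 and 8.58 in LPS, 6.96 and 7.07 in M, and 6.85 and 7.26 in control. Its arrays with LPS lay above those without it, by 1.48 ± 0.12 in LPS versus control (adjusted p = 0.000155, limma) and by 1.13 ± 0.12 in LPS+M versus M (adjusted p = 0.000871). Pilra, its inhibitory counterpart, was 0.75 ± 0.06 higher in LPS versus control (adjusted p = 0.000165). Nectin2 was also the only gene of this list called in M versus control (0.69 ± 0.15, adjusted p = 0.0139, limma). That call was lost without control replicate 1 (0.57), without M replicate 2 (0.55) and when the probe sets of Nectin2 were averaged (0.42).

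Of 36 other C-type lectin receptors on the array, 9 passed the filter and none was called in M versus control, beside 4.55% of all genes. Clec2d, which encodes a ligand of a natural killer cell receptor, had 7.28 and 7.26 in LPS+M, 8.17 and 8.34 in LPS, 7.20 and 7.18 in M, and 7.28 and 7.41 in control. It was high in LPS alone, by 0.91 ± 0.08 against control (adjusted p = 0.00017, limma), and was lower in LPS+M than in LPS (-0.98 ± 0.08, adjusted p = 0.000177). Its interaction was -0.83 ± 0.11 (adjusted p = 0.0419), a call that was lost with no filter and in 7 of the 8 fits that left out 1 array (log2 values from -0.90 to -0.75). Cd93, a surface glycoprotein with a lectin-like domain, was higher in LPS+M than in LPS (0.59 ± 0.10, adjusted p = 0.00549), but not called without LPS replicate 1 (0.41) or without LPS+M replicate 2 (0.57). Of 14 tested ligands, shedding proteases and cofactors, none was called in M versus control or in LPS+M versus LPS, beside 4.55% and 6.71% of all genes. Ms4a7, of a family linked to TREM-2, was called higher in LPS versus control (0.73 ± 0.09, adjusted p = 0.00131), though not when its probe sets were averaged (0.40).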

How the data were processed

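RNA of RAW 264.7 cells was measured on 8 Affymetrix mouse arrays, 2 for each of the LPS+M, LPS, M and control groups, which the labels give. The authors deposited log2 values from the GC-RMA algorithm (version 2.10.0, run under R version 2.6.1 per the submitters' processing notes), which corrects background by probe GC content, quantile normalizes and summarises each probe set. These log2 values were used as deposited. Of 45101 probe sets, 34945 carry 1 gene symbol, 932 several, 9160 none and 64 are controls, by the platform annotation, and only the first were used.

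All 8 arrays were fitted together in R 4.3.3 with limma 3.58.1 (lmFit, contrasts.fit, eBayes), with 1 coefficient a group and no replicate block. The study's methods used a t-test at the same 1.5-fold minimum and above-average filter, and this is run as an alternative. Residual degrees of freedom were 4 and the prior added 3.78. A gene was represented by the probe set of highest mean, and 8908 genes averaging above 4.84 were tested in 7 contrasts. Values after ± are standard errors and intervals are at 95%. An exact permutation test of 2 against 2 arrays cannot go below p = 0.333 and was not used. Other probe sets of the members were tested among 14503 probe sets taken alone. A probe set ending in _s_at may match transcripts of several genes. Calls were tested on simulated data.

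The members and gene lists were chosen with earlier results of these data known, and Trem1 is a gene the study names from these arrays, so list counts are descriptions. The text names every member with its probe sets, up to 4 called genes of each other list with the largest change in a comparison, and the 3 genes most correlated with each called member. Trem3, Fcer1g, Slc7a11, Rnmt and the genes named for a lost call or a count were added after their values were seen. The replicate numbers were not used to pair the arrays. Correlations of same-numbered deviations were -0.121 to 0.186, and with 2 arrays a group they cannot exclude pairing or a shared batch. Promoters came from a RefSeq table of windows, searched in Python 3.11.15. Alternatives were other filters, probe set choices, normalizations, tests and fold minimums, a replicate block, and leaving out each array. The number of arrays limits the precision.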

Additional observations from a re-analysis of the deposited data

Results flagged for a closer look

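Clec4a2 and Clec4n were flagged because every array of 1 contrast moved one way and every array of the matching contrast moved the other way. The interaction tests of these probe sets were not called (limma), so the differences are values only. On 1422013_at, Clec4a2 had a log2 fold change of -0.17 in LPS+M versus M and 0.45 in LPS versus control. On 1425951_a_at, Clec4n had -0.16 in LPS+M versus M and 0.16 in LPS versus control. For menthol, 1419627_s_at of Clec4n gave -0.17 in LPS+M versus LPS and 0.24 in M versus control, and 1425406_at of Clec4a2 gave -0.18 in LPS+M versus LPS and 0.18 in M versus control. Over the main probe sets of all 8908 tested genes, 3.20% showed such opposite movement for LPS and 3.14% for menthol. The probe sets 1419627_s_at and 1425406_at are not main probe sets, so the share for menthol does not cover them.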

How the results depend on the processing

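The number of members called was 1 for M versus control, 1 for LPS versus control, 3 for LPS versus M, 2 for LPS+M versus LPS, 2 for LPS+M versus M and 2 for LPS+M versus control. With a Benjamini-Hochberg adjustment, which the methods do not name for it, the methods' t-test called 0 in each of these. Without the adjustment it called 1 in LPS+M versus M. The share of all genes that this t-test called was not counted, so these counts say nothing particular to the members. With no fold minimum the count was 2 for M versus control, where Clec4d was added and 21.7% of all genes were called, 2 for LPS versus control, where Clec4a2 was added and 21.7% were called, and 5 for LPS+M versus control, where 34.6% were called. A 2-fold minimum gave 0 for LPS+M versus LPS, 1 for LPS+M versus M and 1 for LPS+M versus control. With the mean of all probe sets the count was 2 for LPS versus control, where Trem1 was lower by 0.64 (log2 -0.64), 1 for LPS+M versus LPS and 1 for LPS+M versus M. With each probe set by itself, 2 genes had a called probe set in LPS versus control. Counted as probe sets, 3 of the 12 above the filter were called, beside 5.7% of all probe sets tested alone. Quantile normalization gave 1 for LPS+M versus M. Leaving out 1 array gave 1 to 2 for LPS versus control, LPS+M versus M and LPS+M versus control. The replicate block left the member counts at 1, 1, 3, 2, 2, 2 and, for the interaction, 0. The interaction count was 0 under each alternative that was run. The methods' t-test and a fit of only the compared groups were not run for it. Where no share of all genes is given beside an alternative, its count describes the members alone.

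Clec4a2 in LPS versus M lost its call on its other probe set, at -0.06 ± 0.09 (adjusted p = 0.638, limma) against 0.67. The sign changed there, but the arrays overlapped. Of 1124 repeats of single member values, 1088 kept their direction and side of the threshold or stayed uncalled. Another 26 lost a call, 9 gained one and 1, the Clec4a2 value above, changed sign and lost its call. In 44 of the 1088 the sign changed with neither value called. Of 1428 repeats for the 96 calls of list genes, chosen after seeing the data, 1314 kept the call, 114 lost it and 0 reversed. Where no cause is given it was not tested. The calls of Trem1 in M versus control and of Clec4e in LPS versus control were lost only under the methods' t-test with added Benjamini-Hochberg adjustment. The values of Clec4a2 and Clec4e in LPS+M versus LPS depend on the probe set, and 2 arrays a group limit the precision of all of them.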
